A study of Mus musculus with 2 samples.

Results

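To follow how energy metabolism genes were used as embryonic muscle formed, 35 genes were taken by symbol from the 27998 genes of the count tables by a rule that uses no measured value, though with earlier results of these data known. They comprised 22 genes of glucose uptake, glycolysis and the lactate and pyruvate branch, and the 13 protein-coding genes of mitochondrial DNA. Cells came from inter-limb somites of wild type C57BL/6 mouse embryos at E9.5 or E11.5, without any treatment. At each stage, the tissue of 3 embryos was pooled, dissociated with trypsin and captured in droplets as 1 library. Stage and library therefore cannot be told apart, cells of pooled embryos are not replicates, and no test was possible. Values are given with exact 95% intervals that cover counting error only.

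Glycolysis splits glucose into pyruvate and yields ATP without oxygen, and lactate dehydrogenase exchanges pyruvate with lactate. Several steps are run by sister enzymes from separate genes, and adult skeletal muscle is known for Eno3, Pgam2 and Pfkm, the muscle forms of enolase, phosphoglycerate mutase and phosphofructokinase. Mitochondrial DNA encodes a few subunits of the respiratory chain and of ATP synthase, while nuclear genes encode the other subunits, and both sets are needed to make ATP with oxygen.

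Cells with at least 200 and fewer than 6500 genes and under 15% of UMIs from mitochondrial DNA were kept, which left 9851 of 10121 barcodes at E9.5 and 9595 of 10167 at E11.5. A UMI is a random tag that marks 1 captured transcript. Libraries held 149368952 and 136655763 UMIs, and the kept cells had a median of 12462 and 12479 UMIs, so the depth per cell was close. Although the label is somite cells, marker gates also found neural, endothelial, blood and epithelial cells, and 30 barcodes occurred in both libraries. Levels are UMIs of a gene per 1000000 UMIs of all cells of a gated class (UPM). They are shares, so a lower UPM and a higher total of other RNA cannot be told apart.

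Muscle cells were divided into 4 steps by markers that were not among the 35 genes. Muscle progenitors had Pax3 or Pax7 with other somite genes, no Myod1 and at most 1 Myog UMI (939 cells at E9.5 and 243 at E11.5). Committed myoblasts had at least 3 UMIs of Myf5 and Myod1 and at most 1 of Myog (60 and 388 cells). Early myocytes had at least 3 Myog UMIs and under 50 UMIs of 9 sarcomere genes (17 and 163 cells). Sarcomere myocytes had at least 3 Myog UMIs and at least 50 sarcomere UMIs from 4 or more of these genes (7 and 343 cells). At E11.5 the sarcomere genes made up 463 UPM of the progenitors and 33095 UPM of the sarcomere myocytes. The gates also left 4336 E9.5 cells and 5678 E11.5 cells in no class. In clusters made without the 35 genes, 810 of the 939 progenitors at E9.5 fell in the muscle progenitor cluster. At E11.5 this held for 138 of the 243, with 69 in a cluster named dermal and the rest in other clusters. The progenitors of the stages were thus not equally matched to muscle by clustering. Ratios between muscle steps at E11.5 use the same 243 cells as their baseline. The part of the cells outside the muscle cluster in those ratios was not tested.

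Promoters of Pgam2 and Eno3 are shown because these genes differed most between muscle steps, and those of Ldha and Ldhb because this pair of subunits differed in opposite directions in both comparisons that follow. RefSeq promoters on GRCm38.p6 cover 250 bases before to 50 bases after a transcript start, and 21 of the 22 glycolysis genes had at least 1. Pgam2, at chr11:5801640-5803733 on the minus strand, and Eno3, at chr11:70657202-70662513 on the plus strand, are printed with CANNTG in capitals. This is the E-box in its general form, searched on both strands, where it reads alike. MyoD family factors bind E-boxes, but which of these matches they bind was not measured. The printed windows lie at chr11:5803747-5804046 (minus strand) for Pgam2 and chr11:70656926-70657225 (plus strand) for Eno3.
Pgam2: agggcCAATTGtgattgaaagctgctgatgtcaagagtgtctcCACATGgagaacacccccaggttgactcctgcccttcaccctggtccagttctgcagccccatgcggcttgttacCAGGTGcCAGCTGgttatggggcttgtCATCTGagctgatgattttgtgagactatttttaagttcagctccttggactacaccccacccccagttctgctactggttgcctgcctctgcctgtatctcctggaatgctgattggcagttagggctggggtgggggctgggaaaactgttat
Eno3: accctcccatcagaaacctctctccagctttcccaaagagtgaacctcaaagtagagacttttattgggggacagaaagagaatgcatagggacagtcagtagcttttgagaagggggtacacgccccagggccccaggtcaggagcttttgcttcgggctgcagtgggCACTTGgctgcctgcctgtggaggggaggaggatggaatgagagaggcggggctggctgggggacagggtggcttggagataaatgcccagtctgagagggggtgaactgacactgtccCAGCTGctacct
The Pgam2 window held 5 CANNTG matches, and at least 5 occurred in 2.10% of 32851 mouse promoters. The Eno3 window held 2, as did or exceeded 39.6% of promoters.

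Ldha, at chr7:46841475-46855627 (plus strand), encodes the A subunit of lactate dehydrogenase. Ldhb, at chr6:142490249-142507957 (minus strand), encodes the B subunit. Their promoter windows at chr7:46845554-46845853 (plus strand) and chr6:142507908-142508207 (minus strand) are printed with ACGTG or GCGTG in capitals, on either strand, which are the cores of the hypoxia response element and overlap the E-box where the letters read CACGTG. Ldha had a further RefSeq window, at chr7:46846832-46847131, that is not printed and held 2 matches, as did or exceeded 20.6% of promoters.
Ldha: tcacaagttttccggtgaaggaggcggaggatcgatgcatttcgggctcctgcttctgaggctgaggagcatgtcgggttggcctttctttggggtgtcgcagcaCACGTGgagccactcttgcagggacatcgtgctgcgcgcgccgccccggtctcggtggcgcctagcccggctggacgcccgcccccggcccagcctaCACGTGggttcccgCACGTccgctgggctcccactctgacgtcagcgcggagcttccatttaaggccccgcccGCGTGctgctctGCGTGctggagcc
Ldhb: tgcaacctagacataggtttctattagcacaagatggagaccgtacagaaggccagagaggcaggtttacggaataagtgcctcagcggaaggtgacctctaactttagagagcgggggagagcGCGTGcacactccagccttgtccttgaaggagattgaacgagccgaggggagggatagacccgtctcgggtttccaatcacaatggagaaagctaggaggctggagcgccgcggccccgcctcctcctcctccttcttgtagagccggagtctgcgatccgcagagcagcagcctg
The Ldha window held 7 matches counted on both strands, a number reached by 0.301% of promoters, with each CACGTG counted on both. The Ldhb window held 1, and 43.8% of promoters held at least that many. All 33 windows of the 21 genes were searched, and the genes printed were chosen by their ratios. Other glycolysis genes also had matches to ACGTG or GCGTG, with 5 in an Hk1 window and 4 in the Pfkp window. At least 5 occurred in 1.66% of promoters and at least 4 in 3.86%. Whether the number of matches goes with the level or direction of a gene was not tested. These matches describe letters only, and binding was not measured here.

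Within the E11.5 library, sarcomere myocytes had more glycolysis transcripts than muscle progenitors, while transcripts of mitochondrial DNA took nearly the same share of UMIs. The 22 glycolysis genes summed to 6250.2 UPM in progenitors and 9021.9 UPM in sarcomere myocytes, a log2 ratio of 0.53 (0.51 to 0.55). The 13 mitochondrial genes summed to 38070.4 and 39756.9 UPM, a log2 ratio of 0.06 (0.05 to 0.07). A change of at least 1.5-fold, counted by size and not by a test among genes with at least 100 UMIs in both classes together, was reached upward by 7 of the 18 glycolysis genes that passed this minimum and by 0 of the 13 mitochondrial genes. Over all genes, 14.7% were at least 1.5-fold higher. In the other direction, 2 glycolysis genes and 0 mitochondrial genes were at least 1.5-fold lower, against 25.7% of all genes. At 2-fold, 4 glycolysis genes (Pgam2, Eno3, Aldoa and Pfkm) were higher, beside 10.3% of all genes, and 1 (Ldhb) was lower, beside 11.7%. The median log2 ratio was 0.33 for the glycolysis genes, 0.03 for the mitochondrial genes and -0.20 for all genes, and 4 glycolysis genes (Slc2a3, Pfkp, Aldoc and Eno2) had under 100 UMIs. Globin, the marker of red blood cells, was at 1020.3 UPM in sarcomere myocytes, the highest of the E11.5 classes other than red blood, and at 67.2 UPM in progenitors, and its part in these results was not tested.

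**Figure D1:**
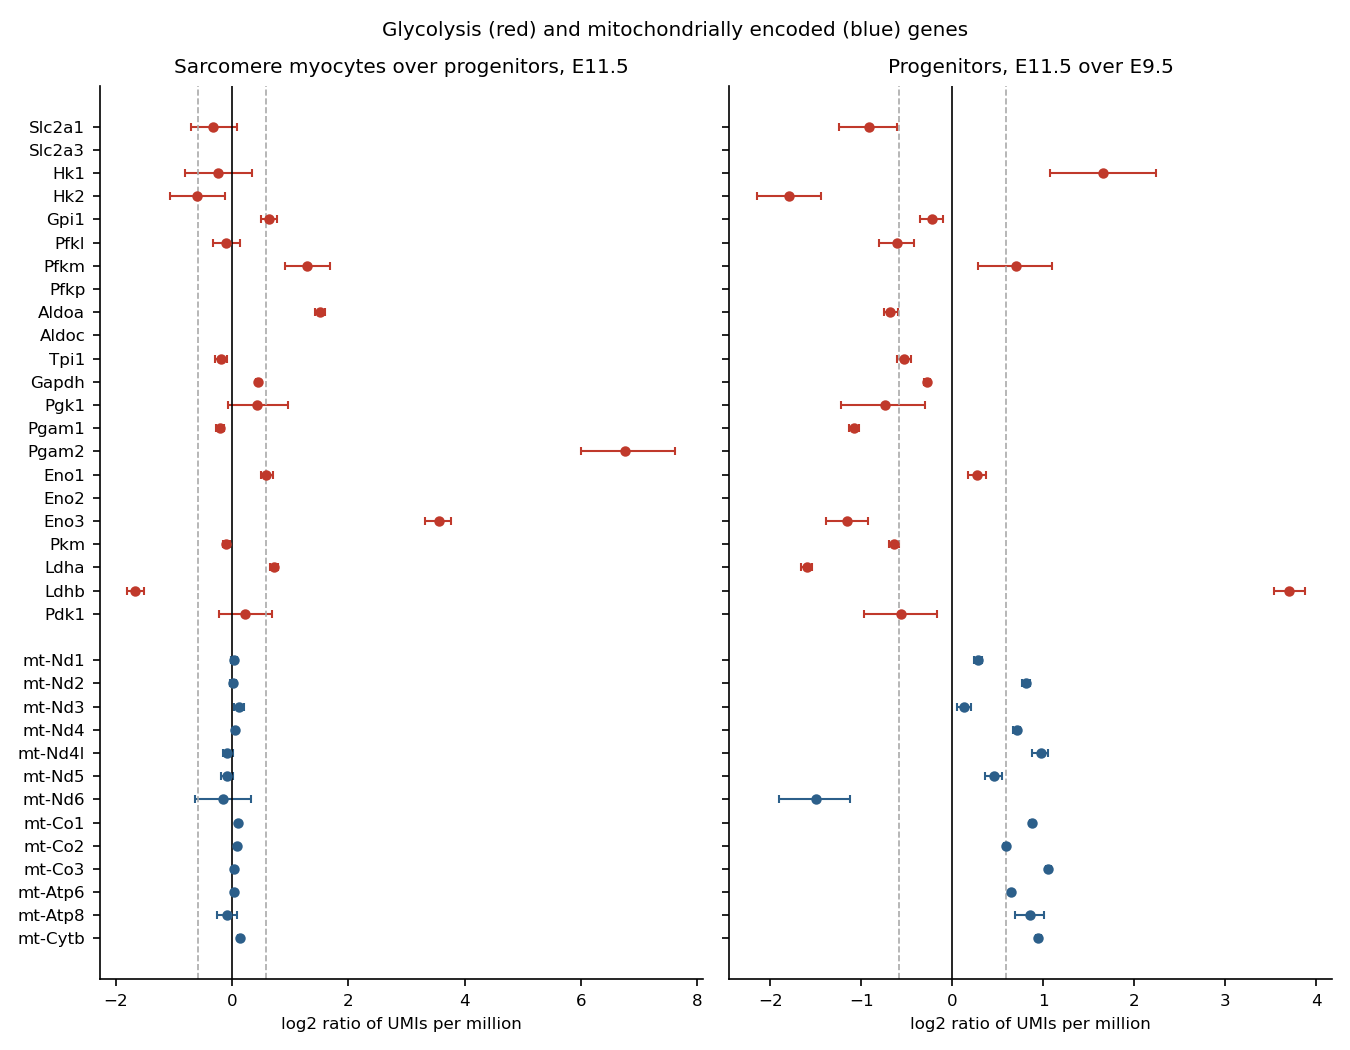
Log2 ratios of UPM for each glycolysis gene (red) and mitochondrially encoded gene (blue), for E11.5 sarcomere myocytes over progenitors (left) and for progenitors at E11.5 over E9.5 (right), with 95% counting intervals, dashed lines at 1.5-fold and no point for a gene under 100 UMIs. On the left Pgam2 lies at 6.75 and Eno3 at 3.55 while all mitochondrial genes lie near 0, and on the right most glycolysis genes lie left of 0 and all mitochondrial genes except mt-Nd6 lie right of it.

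The muscle isoforms of the lower pathway differed most. Pgam2, which moves the phosphate group of phosphoglycerate, had 14 UMIs (3.72 UPM) in progenitors and 2561 UMIs (399 UPM) in sarcomere myocytes, a 107-fold difference with a log2 ratio of 6.75 (6.00 to 7.62). Committed myoblasts had 77 UMIs (10.9 UPM) and early myocytes 37 UMIs (12.0 UPM), each under the minimum of 100 with the progenitors and no higher than the Pgam2 level of E11.5 epithelial cells (13.5 UPM). The widest step in Pgam2 thus lay between early and sarcomere myocytes. The general form Pgam1 went from 613 to 533 UPM (log2 -0.20), and Pgam2 held 0.602% of the UMIs of the pair in progenitors (95% Clopper-Pearson interval 0.330 to 1.01%) and 42.8% in sarcomere myocytes (41.6 to 44.1%).

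Eno3 followed with 45.9 UPM in progenitors, 65.5 in committed myoblasts, 88.7 in early myocytes and 536 in sarcomere myocytes. Its log2 ratio to the progenitors was 0.51 (0.26 to 0.77), 0.95 (0.67 to 1.23) and 3.55 (3.32 to 3.77) at these steps, so Eno3 was already above the progenitor level in cells with few sarcomere UMIs. Eno1, the general enolase, was also higher in sarcomere myocytes, at 409.9 against 272 UPM (log2 0.59), and Eno2, the neuronal form, had 1 UMI in progenitors and 0 in sarcomere myocytes. Eno3 supplied 14.4% of enolase UMIs in progenitors (12.5 to 16.6%) and 56.7% in sarcomere myocytes (55.4 to 57.9%). Capture efficiency may differ between genes, so such shares are shares of UMIs. Reads of Eno1 may also match the near-identical copy Eno1b, counted separately at 3.79 UPM in E9.5 progenitors.

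**Figure D2:**
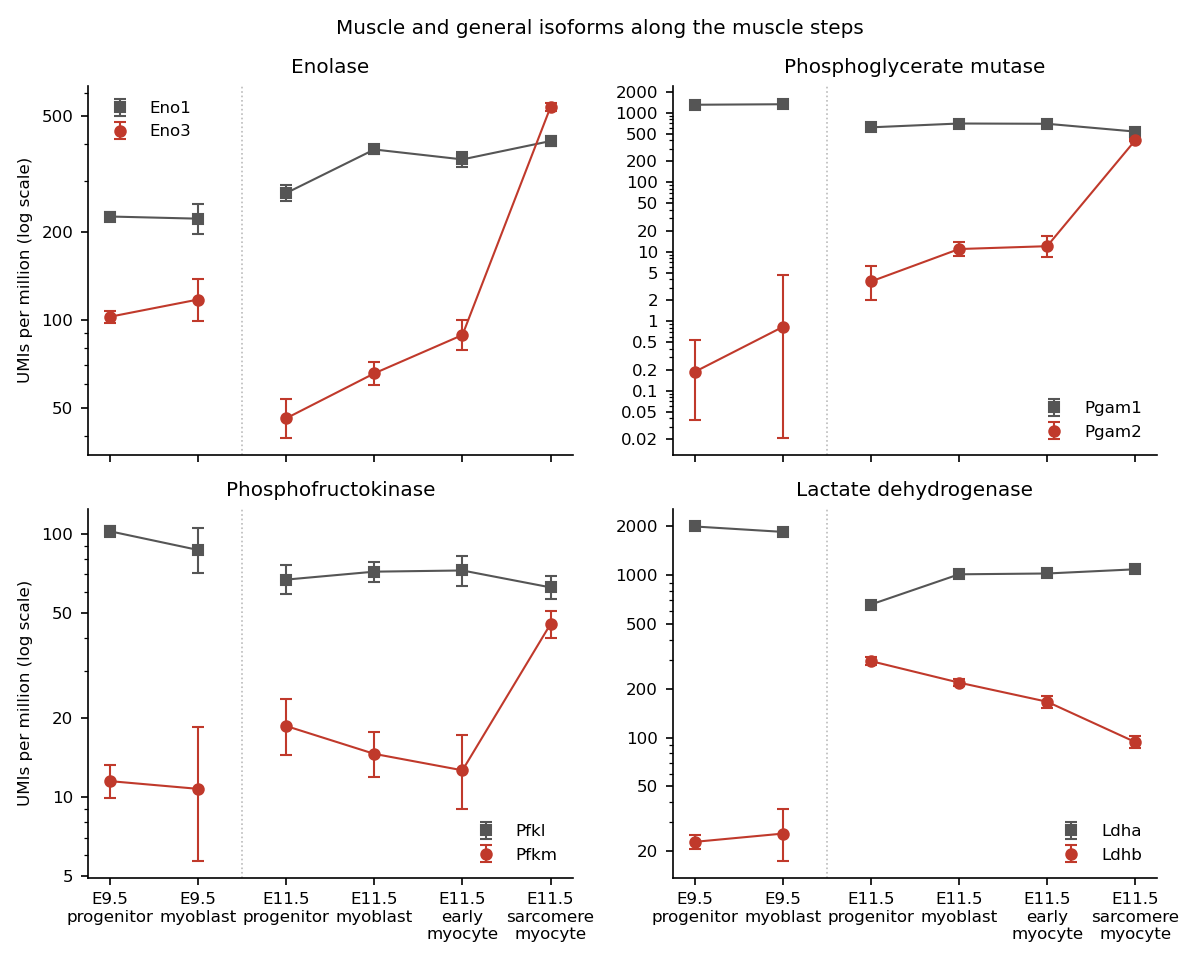
UPM (log axis) of the general (grey squares) and the muscle or B form (red circles) of 4 enzymes in E9.5 progenitors and myoblasts and in the 4 steps at E11.5, with 95% Poisson intervals. Eno3 and Pgam2 jump at the last step to 536 and 399 UPM, Pfkm reaches 45.4 UPM there, and Ldhb steps down from 296 to 93.8 UPM.

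Of the upper pathway, phosphofructokinase commits sugar to glycolysis and aldolase splits it. Pfkm, the muscle phosphofructokinase, had 18.6 UPM in progenitors, 14.6 in committed myoblasts, 12.6 in early myocytes and 45.4 in sarcomere myocytes, a log2 ratio of 1.29 (0.91 to 1.68) at the last step. The liver form Pfkl was at 66.9 and 62.5 UPM, and Pfkm made up 21.3% of phosphofructokinase UMIs in progenitors (17.0 to 26.1%) and 41.6% in sarcomere myocytes (37.9 to 45.3%). The platelet form Pfkp had 7 and 8 UMIs. Aldoa, the aldolase of muscle and most other cells, went from 442 to 1258 UPM (log2 1.51, 1.43 to 1.59), whereas Aldoc, the brain form, had 6 and 2 UMIs. Gpi1, which isomerises glucose phosphate, was at 157 and 243 UPM (log2 0.63).

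Genes of uptake and entry did not share this direction. Slc2a1, the general glucose transporter, was at 25.5 UPM in progenitors and 20.4 in sarcomere myocytes with an interval that spanned 0 on the log2 scale (-0.71 to 0.08), and Slc2a3, another transporter, had 8 and 4 UMIs. Hk1 was at 12.0 and 10.1 UPM (-0.81 to 0.34). Hk2, an inducible hexokinase, was lower in sarcomere myocytes at 12.6 against 19.1 UPM, with an interval from -1.07 to -0.12. It was not lower at the steps between. Committed myoblasts had 27.9 UPM (log2 0.54, 0.15 to 0.95) and early myocytes 26.2 UPM (log2 0.46, -0.02 to 0.93). Both hexokinases together thus rested on few UMIs, 117 in progenitors and 146 in sarcomere myocytes.

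The remaining enzymes of the lower pathway differed by under 1.5-fold. Gapdh was at 2221.3 UPM in progenitors and 3020.5 in sarcomere myocytes (log2 0.44), and Pgk1 at 12.5 and 16.8 UPM with an interval that spanned 0 (-0.07 to 0.96). Tpi1 (368 and 322 UPM, log2 -0.19) and Pkm, pyruvate kinase (994 and 928 UPM, log2 -0.10), were slightly lower. Gapdh, Pgk1 and Ldha have many processed copies in the mouse genome that may share their reads, and how such reads were counted is not given in the sources used here.

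The lactate dehydrogenase subunits moved in opposite directions. Ldha was at 661 UPM in progenitors, 1014 in committed myoblasts, 1026 in early myocytes and 1089 in sarcomere myocytes, and thus was higher from the first step on (log2 0.62, 0.64 and 0.72). Ldhb was at 296, 218, 166 and 93.8 UPM at the same steps, with log2 ratios to the progenitors of -0.44, -0.83 and -1.66 (-1.80 to -1.51). The B subunit supplied 31.0% of lactate dehydrogenase UMIs in progenitors (29.4 to 32.5%) and 7.93% in sarcomere myocytes (7.34 to 8.57%). Pdk1, the kinase that inhibits pyruvate dehydrogenase, was at 16.5 and 19.2 UPM (-0.23 to 0.68). The 3 step ratios share the same progenitors, so they are not independent of each other.

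Each of the 13 mitochondrial genes differed by little between progenitors and sarcomere myocytes. The lowest log2 ratio was that of mt-Nd6 (-0.15, -0.63 to 0.33; 62 and 95 UMIs) and the highest that of mt-Cytb, the cytochrome b of complex III (0.14, 0.11 to 0.17). The complex IV subunits mt-Co1, mt-Co2 and mt-Co3 were at 0.11, 0.09 and 0.03, and mt-Atp6 of ATP synthase at 0.03. Early myocytes had less than progenitors in sum (34181.6 UPM, log2 -0.16), with 11 of the 13 genes below 0 and mt-Nd1 (0.02) and mt-Nd6 (0.26) above it. The class sums hid a tail of cells, since the lowest 5% of sarcomere myocytes had at most 0.446% of UMIs from mitochondrial DNA against 2.68% in progenitors, at medians of 3.83% and 3.73%. With each cell weighted equally, the log2 ratio of the sum was -0.03 in place of 0.06.

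Along the Myog cells of E11.5 the muscle isoforms were highest where the sarcomere share was highest. Early and sarcomere myocytes were pooled and divided into 4 bins of 126 or 127 cells by the share of UMIs from the 9 sarcomere genes, whose median was 0.121%, 0.422%, 2.12% and 6.56%. Pgam2 was at 8.77, 36.1, 311 and 823 UPM in these bins. Eno3 was at 84.8, 94.8, 399 and 1086 UPM, and Pfkm at 13.9, 9.35, 25.5 and 97.7. In the second bin Pgam2 was thus above its first level, while Eno3 was close to it and Pfkm was not higher. Pgam1 (702, 674, 618 and 303 UPM) and Pkm (1134, 1089, 1002 and 689 UPM) were lowest in the last bin, where Aldoa reached 1703 UPM. Cycling genes, a list of 12, were at 2448.8 UPM in the first bin and 92.2 in the last, and their part in the enzyme levels was not tested. The glycolysis sum was 7406.0, 7602.7, 8841.7 and 10424.5 UPM over the bins and the mitochondrial sum 32995.5, 38231.9, 40438.7 and 41285.4 UPM, so both were lowest in the first bin and highest in the last.

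**Figure D3:**
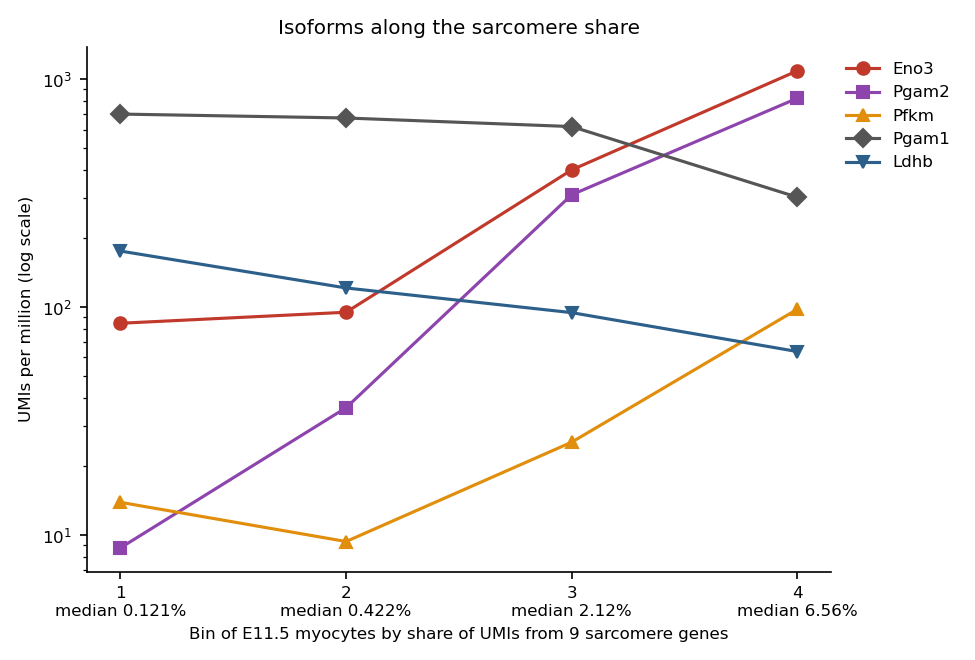
UPM (log axis) of 5 genes in 4 bins of E11.5 Myog cells ordered by their share of UMIs from 9 sarcomere genes, with the median share under each bin. Eno3 and Pgam2 end at 1086 and 823 UPM, Pfkm at 97.7, and Pgam1 and Ldhb are lowest in the last bin at 303 and 63.7 UPM.

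Free RNA in droplets can give UMIs to cells that do not express a gene. Shares of cells also depend on depth, so they were compared after thinning each cell to 5000 UMIs, which does not remove free RNA. Cells under 5000 UMIs were left out, 28 of 343 sarcomere myocytes and 4 of 243 progenitors at E11.5. Pgam2 had a UMI in 58.7% of 315 thinned sarcomere myocytes (74.3% before thinning), in 1.67% of 239 progenitors and in 0 of 67 endothelial cells, which allows up to 5.36%. Median depths were 17130 UMIs in sarcomere myocytes, 14461 in progenitors and 19392 in endothelial cells. Eno3 had a UMI in 66.7% of thinned sarcomere myocytes, 18.4% of progenitors and 1.49% of endothelial cells (86.9%, 47.7% and 10.1% before thinning). The 14 Pgam2 UMIs of progenitors (3.72 UPM) lay within the range found outside muscle, from 0 in endothelial cells to 13.5 UPM in epithelial cells. Neural crest had 11.9 UPM and neural tube 11.8 UPM of Pgam2. Whether free RNA supplied any of these UMIs was not tested. Sarcomere genes themselves reached 1437.7 UPM in neural tube cells at E11.5 and at most 57.8 UPM outside myocytes at E9.5.

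In the few myocytes of E9.5, Pgam2 and Eno3 had the same order as at E11.5. In 7 sarcomere myocytes Pgam2 had 57 UMIs, or 281 UPM (213 to 364), an interval below the 399 UPM of E11.5 sarcomere myocytes. Eno3 was at 547 UPM (450 to 659), with the intervals of Eno3 at both stages overlapping. In 17 early myocytes Pgam2 was at 25.9 UPM and Eno3 at 178, though 5 of these cells had under 5000 UMIs and the lowest 25% had at most 0.0482% of UMIs from mitochondrial DNA. Ldhb had only 5 UMIs in the E9.5 sarcomere myocytes, or 24.6 UPM with an upper bound of 57.5. That was close to the 22.8 UPM of E9.5 progenitors and below the 93.8 UPM of E11.5 sarcomere myocytes. With 5 UMIs from 7 cells, it cannot be told whether Ldhb was lower than in progenitors at E9.5.

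Across stages, glycolysis transcripts were lower and mitochondrially encoded transcripts higher at E11.5. In muscle progenitors the glycolysis sum went from 9600.1 UPM at E9.5 to 6250.2 at E11.5, a log2 ratio of -0.62 (-0.64 to -0.60), and the mitochondrial sum from 22841.5 to 38070.4 UPM, a log2 ratio of 0.74 (0.73 to 0.75). Of the 17 glycolysis genes past the minimum, 9 were at least 1.5-fold lower, where 12.5% of all genes were, and 3 were at least 1.5-fold higher, where 19.1% of all genes were. Of the 13 mitochondrial genes, 9 were at least 1.5-fold higher and 1 was lower. At 2-fold, 4 glycolysis genes (Hk2, Ldha, Eno3 and Pgam1) were lower, beside 4.78% of all genes, while Hk1 and Ldhb were higher, beside 8.96%. Among mitochondrial genes, mt-Co3 was the 1 that was higher at 2-fold, and mt-Nd6 was lower. The median log2 ratio was -0.61 for glycolysis, 0.71 for mitochondrial genes and 0.06 for all genes. The E11.5 progenitors are the same cells as in the comparison of muscle steps, so their values enter both.

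Progenitors also differed by stage in a list of 13 genes that respond to dissociation, with 255 UPM at E9.5 and 458 at E11.5, while cycling genes were close (2449.0 and 2272.8 UPM). Sarcomere myocytes at E11.5 had 355 UPM of the dissociation list. The part of these values in the levels of the metabolic genes was not tested. In committed myoblasts the glycolysis sum went from 9506.1 to 7333.1 UPM (log2 -0.37) and the mitochondrial sum from 21659.5 to 35620.4 UPM (log2 0.72), on 60 and 388 cells.

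Among glycolysis genes, those of uptake and entry differed in direction between stages. Hk2 was at 66.1 UPM at E9.5 and 19.1 at E11.5 (log2 -1.79, -2.15 to -1.44), and Slc2a1 at 48.2 and 25.5 (log2 -0.92). Hk1 went the other way from 3.79 to 12.0 UPM (log2 1.66, 1.07 to 2.24), and its share of hexokinase UMIs from 5.42% to 38.5%. Slc2a3 had 90 and 8 UMIs. Pfkl was at 102 and 66.9 UPM (log2 -0.61) and Pfkm at 11.5 and 18.6 (log2 0.70, 0.28 to 1.10), so the balance of these sister genes differed by stage as well as by muscle step.

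Further down the pathway, Aldoa (708 and 442 UPM, log2 -0.68), Pgk1 (20.9 and 12.5 UPM, log2 -0.74), Pgam1 (1295.8 and 613 UPM, log2 -1.08) and Pkm (1547 and 994 UPM, log2 -0.64) were lower at E11.5. Smaller differences were seen for Gpi1 (log2 -0.22), Tpi1 (-0.53), Gapdh (-0.28), Pdk1 (-0.56, -0.97 to -0.17) and Eno1, which was higher (0.27). Aldoc had 47 and 6 UMIs, Pfkp 19 and 7, Pgam2 3 and 14, and Eno2 0 and 1, all under the minimum of 100. Eno3 was at 102 UPM in E9.5 progenitors and 45.9 at E11.5 (log2 -1.16, -1.39 to -0.93), so this muscle form was lower in progenitors at the later stage and highest in the myocytes of that stage.

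The lactate dehydrogenase subunits differed in opposite directions between stages, with Ldhb the widest of the 17 glycolysis genes past the minimum. Ldha was at 1999 UPM in E9.5 progenitors and 661 at E11.5 (log2 -1.60, -1.66 to -1.54). Ldhb was at 22.8 and 296 UPM (log2 3.70, 3.53 to 3.87), and its share of the pair was 1.13% and 31.0%. After thinning, Ldhb had a UMI in 10.5% of E9.5 progenitors and 75.3% of E11.5 progenitors (29.4% and 96.7% before thinning). In endothelial cells, the class of at least 50 cells with the least Ldhb apart from blood at both stages, the thinned shares were 5.06% and 17.9%. These directions were found in each class compared, as 11 of 11 had more Ldhb at E11.5 (log2 2.08 to 6.21) and 11 of 11 had less Ldha (log2 -3.82 to -0.87). Red blood cells gave the extremes 6.21 and -3.82. Ldhb was at its lowest E9.5 level there (0.589 UPM), so the size of that ratio rests on very few UMIs. With globin left out of the total, the ratios in red blood cells were 6.95 for Ldhb and -3.09 for Ldha. Whether free RNA supplied Ldhb UMIs to these cells was not tested.

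**Figure D4:**
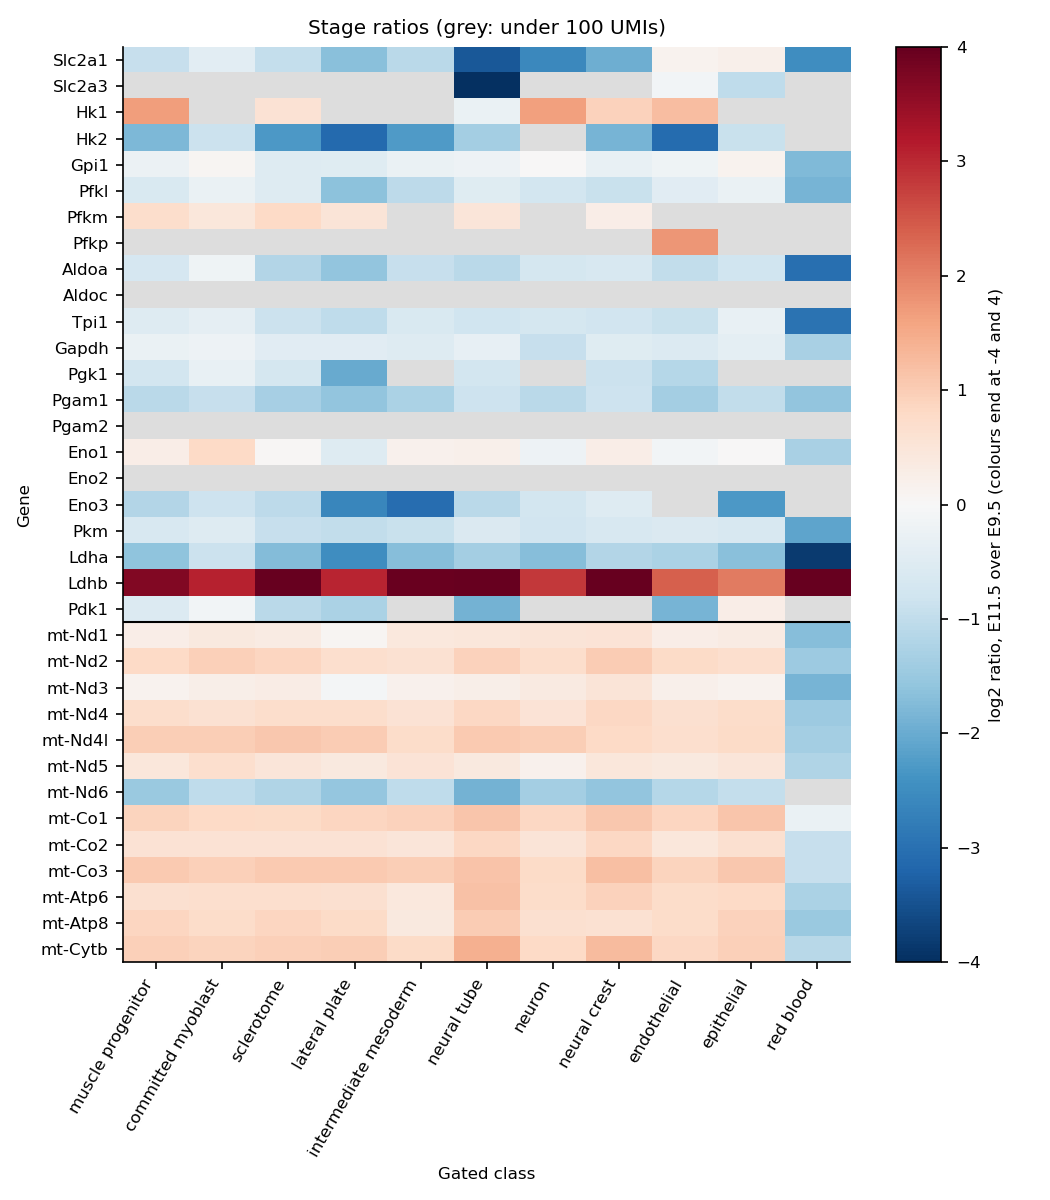
Log2 ratio of UPM at E11.5 over E9.5 for each of the 35 genes (rows) in 11 gated classes with at least 50 cells at both stages (columns), red for higher and blue for lower at E11.5 and grey for under 100 UMIs. Ldhb is red and Ldha blue in 11 of 11 classes, the mitochondrial genes are mostly red except mt-Nd6, and red blood cells differ from the other classes.

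Several other glycolysis genes kept their stage direction over tissues too, while others did not. Aldoa, Tpi1, Gapdh, Pfkl, Pgam1 and Pkm were lower at E11.5 in 11 of 11 classes, Hk2 and Eno3 in 9 of 9 with enough UMIs, and Pfkm was higher in 6 of 6 (log2 0.26 to 0.79). These directions include values smaller than 1.5-fold, down to log2 -0.18 for Aldoa. Hk1 was higher in 5 of 6 classes, with neural tube lower. Eno1 was mixed, with 7 higher and 4 lower. Gpi1 was higher in 3 classes and lower in 8, and Slc2a1 higher in 2 and lower in 9. Pdk1 was higher in 1 class and lower in 6. The classes of a stage share 1 library and its free RNA, so their directions are not independent of each other.

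Where each isoform was found differed by tissue. Among classes of at least 50 cells at E9.5, Eno3 was highest in intermediate mesoderm, at 149 UPM (41.7% of enolase UMIs), then in committed myoblasts (117), lateral plate (105) and progenitors (102), and lower in neural tube (28.2) and endothelial cells (15.7). Intervals of Eno3 overlapped between progenitors (97.5 to 108) and committed myoblasts (98.8 to 138). At E11.5 Eno3 was highest in sarcomere myocytes at 536 UPM and next in early myocytes at 88.7, while intermediate mesoderm had 18.1. Pgam2 was at or below 13.5 UPM in all other E11.5 classes of at least 50 cells, and Pfkm was next highest in dermal cells (20.8 UPM against 45.4 in sarcomere myocytes).

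Like most of the glycolysis genes, both glucose transporters, Hk1 and Pfkp were highest outside muscle at both stages. At E9.5 no glycolysis gene was highest in a muscle class of at least 50 cells. At E11.5 Pfkm, Aldoa, Gapdh, Pgk1, Pgam2, Eno1, Eno3 and Ldha were highest in sarcomere myocytes. Slc2a1 was at 453 UPM in neural tube at E9.5 and 43.1 at E11.5, whereas endothelial cells had 237 and 259 UPM. Slc2a3 was highest in epithelial cells at both stages, with 341 and 169 UPM, and made up 68.3% and 48.1% of the UMIs of the 2 transporters there. In endothelial cells Hk1 (41.7 UPM) and Pfkp (41.7 UPM) were at their highest E11.5 levels, and Hk1 held 89.7% of hexokinase UMIs (79.9 to 95.8%). Eno2 was seen mainly in E11.5 neurons, with 27 UMIs (5.88 UPM).

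Ldhb and Ldha differed in their tissue order at E11.5. Ldhb was highest in neural crest (889 UPM), intermediate mesoderm (748), neural tube (579) and cartilage (548), and lowest in red and white blood cells (43.6 UPM each) and endothelial cells (48.5). Its share of the pair reached 60.3% in intermediate mesoderm and 49.7% in neural crest, against 5.86% in endothelial cells. Ldha was highest in sarcomere myocytes (1089 UPM), early myocytes (1026) and committed myoblasts (1014), with white blood cells close at 1004 UPM (interval 945 to 1065), neurons at 430.2 and red blood cells at 58.7.

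In each class compared, the sum of nuclear respiratory chain genes differed less between stages than the glycolysis and mitochondrial sums did. The glycolysis sum was lower at E11.5 in 11 of 11 classes, with log2 ratios from -2.06 in red blood cells to -0.37 in committed myoblasts. The mitochondrial sum was higher in all classes but red blood, from 0.62 in intermediate mesoderm to 1.04 in neural tube, and -1.02 in red blood cells. In red blood cells globin took 34.0% of UMIs at E9.5 but 60.4% later, and per UMI outside globin the log2 ratios there were -1.32 for the glycolysis sum, -0.28 for the mitochondrial sum and -0.11 for the nuclear respiratory chain genes. The sum of 76 nuclear respiratory chain genes had log2 ratios of -0.85, in red blood cells, to 0.16 over the same 11 classes, and in progenitors it was at 29089.6 and 29349.8 UPM (log2 0.01).

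**Figure D5:**
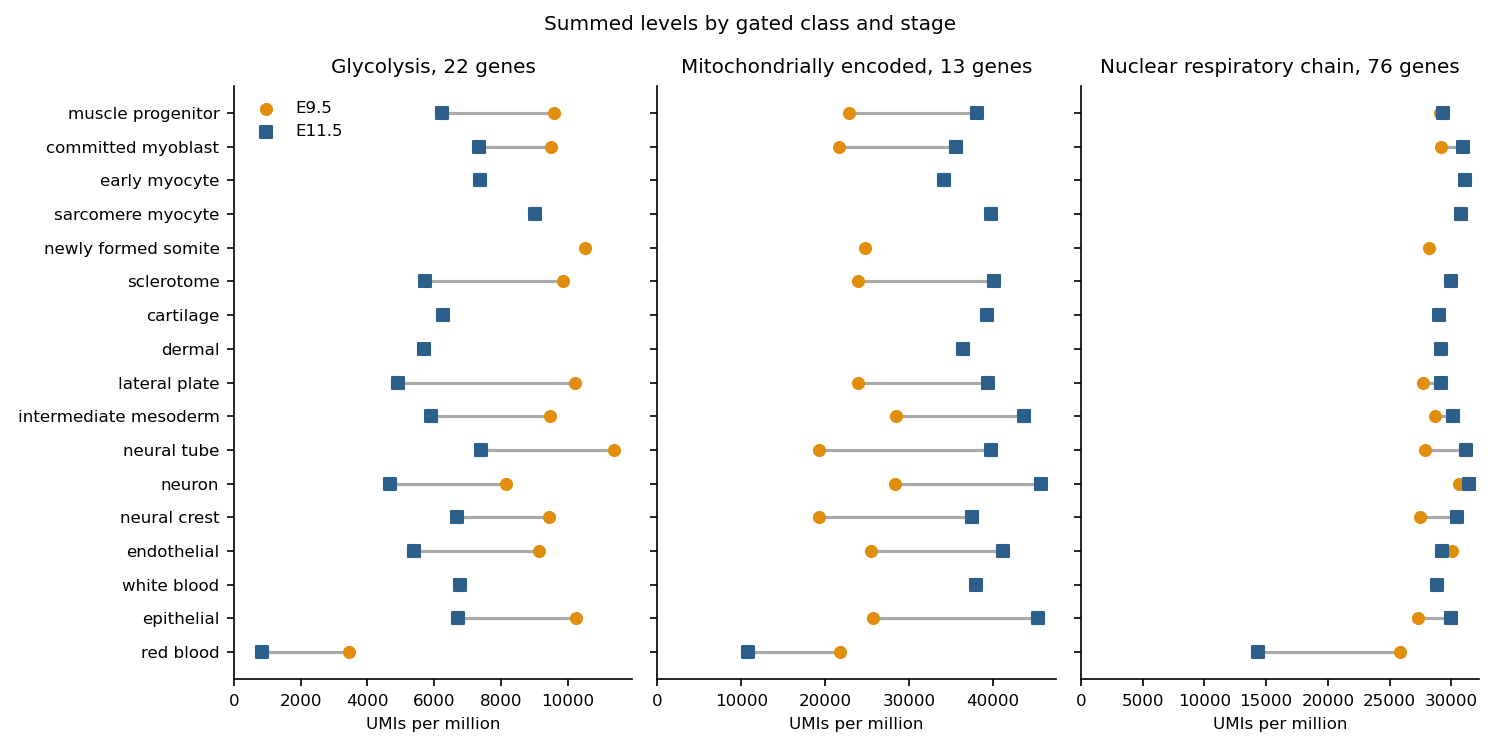
Summed UPM of the 22 glycolysis genes, the 13 mitochondrial genes and 76 nuclear respiratory chain genes in each gated class with at least 50 cells, with E9.5 as orange circles, E11.5 as blue squares and a line between stages of a class. In progenitors the sums went from 9600.1 to 6250.2, from 22841.5 to 38070.4 and from 29089.6 to 29349.8 UPM, and red blood cells are lowest in all 3 panels at E11.5.

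The mitochondrial genes differed from each other by stage. In progenitors the log2 ratio was 1.05 for mt-Co3, 0.97 for mt-Nd4l, 0.94 for mt-Cytb and 0.88 for mt-Co1, 0.85 for mt-Atp8, 0.81 for mt-Nd2 and 0.71 for mt-Nd4, 0.65 for mt-Atp6 and 0.59 for mt-Co2. The complex I genes mt-Nd5, mt-Nd1 and mt-Nd3 were under 1.5-fold at 0.46, 0.28 and 0.13. mt-Nd6, which alone of the 13 lies on the minus strand (chrM:13552-14070), was lower at 46.5 UPM at E9.5 and 16.5 at E11.5 (log2 -1.50, -1.90 to -1.12), and lower in 10 of 10 classes with enough UMIs (log2 -1.88 to -0.95). Its end overlaps that of mt-Nd5 (chrM:11742-13565) on the other strand, and the strand setting of the counting is not given in the sources used here.

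The first and last ranks among the mitochondrial transcripts were the same in each class and stage. mt-Atp6 had the most UMIs of the 13 genes in 28 of 28 class and stage combinations (22.5 to 30.0% of mitochondrial UMIs) and mt-Nd6 the fewest in 28 of 28 (0.0239 to 0.278%). mt-Co1 ranged most widely among the abundant genes (its lowest share was 8.21%). mt-Atp8 and mt-Atp6, and mt-Nd4l and mt-Nd4, overlap on the same strand and share transcripts, so their UMIs may not be separable.

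Genes that feed or use these pathways were counted from 4 lists. Of 40 genes around glycolysis, 15 passed the minimum between progenitors and sarcomere myocytes, 3 were at least 1.5-fold higher and 5 lower, beside 14.7% and 25.7% of all genes, with a median log2 ratio of 0.17. Pygm, the muscle glycogen phosphorylase, had 0 UMIs in progenitors and 353 in sarcomere myocytes (55.0 UPM), at least 69.1-fold higher when the 0 is set to 3 counts over the class. Pygb, the brain form, was lower (20.4 and 6.55 UPM, log2 -1.64). Gpd2 of the glycerol phosphate shuttle (log2 1.74, 1.09 to 2.45) and the lactate exporter Slc16a3 (0.91) were higher, the transporter Slc16a1 (-1.10) the oxygen sensor Egln1 (-0.75), Pdk3 (-0.66) and the glucose transporter Slc2a4 (-0.65) lower, and Mpc1 (0.47) and Pdhb (0.30) within 1.5-fold.

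Nuclear genes of mitochondria mostly stayed within 1.5-fold between these classes. Of 75 respiratory chain genes past the minimum, 4 were higher and 0 lower, beside 14.7% and 25.7% of all genes, and their median log2 ratio was 0.04 beside -0.20 for all genes. Cox6a2 and Cox8b, muscle isoforms of cytochrome oxidase, had 0 UMIs in progenitors and 1181 and 201 in sarcomere myocytes (184 and 31.3 UPM), at least 231-fold and 39.3-fold higher against 3 counts. The general form Cox6a1 was lower (229 and 182 UPM, log2 -0.33), and Cox7a1, another muscle isoform, had 4 and 12 UMIs (log2 0.82, -0.91 to 2.91). Ndufc2 (0.67) and Cox7a2l (0.65) were the others past 1.5-fold, Uqcrfs1 was at 0.42, and Ndufb5 (-0.21) and Ndufb10 (-0.27) were among the lowest.

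Of 17 genes of the citric acid cycle, 1 was higher (Sucla2, log2 0.59) and 0 lower, beside 14.7% and 25.7% of all genes. Their median was -0.08, beside -0.20 for all genes. Dlst (0.19), Idh3b (0.17) and Dld (0.11) were within 1.5-fold, and Sdha (-0.40), Fh1 (-0.47) and Suclg2 (-0.48) lowest. Of 10 genes for the upkeep and expression of mitochondrial DNA that passed the minimum, 0 were higher and 1 lower, with a median of -0.08. Both counts were below the shares over all genes. The lower gene was Nrf1, a regulator of nuclear genes for mitochondria (log2 -0.67). Tfam, which packages and transcribes mitochondrial DNA, was at 79.1 and 53.6 UPM (-0.56), the helicase gene Peo1 at -0.47, and Lrpprc, Polg, Gabpa, Tfb2m and Ssbp1 were between -0.07 and 0.05.

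Between stages, progenitors had 4 higher and 5 lower of 17 genes around glycolysis, beside 19.1% and 12.5% of all genes. Higher at E11.5 were the glucose transporter Slc2a4 (log2 2.22, 1.67 to 2.78), Mpc1 and Mpc2, which carry pyruvate into mitochondria (1.37 and 1.20), and Pygb (1.06). Lower were the lactate transporters Slc16a3 (-2.15) and Slc16a1 (-1.36), Gpd2 (-1.88), Tigar (-1.16) and the pyruvate dehydrogenase subunit Pdha1 (-0.65).

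Of the other lists, 0 of 17 genes of the citric acid cycle were past 1.5-fold in either direction between the progenitors of the stages. Over all genes, 19.1% were at least 1.5-fold higher and 12.5% lower. Of 73 respiratory chain genes 1 was higher, Atp5l (log2 0.59), and 1 lower, the cytochrome c gene Cycs (-0.87). Of 14 upkeep genes 0 were higher and 2 lower, Peo1 (-1.02) and Mterf1a (-0.85), a share of lower genes near that over all genes. The sum of the upkeep genes was at 770.0 UPM at E9.5 and 582 at E11.5, in the direction opposite to the mitochondrial transcripts.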

How the data were processed

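Inter-limb somites of E9.5 and E11.5 embryos gave 1 droplet library per stage. The authors aligned reads to mm10 with Cell Ranger 3.0.1, and deposited raw UMI counts per gene and barcode without normalization, for the barcodes called cells and before their own filters on cells. Counts were checked to be whole numbers. No column belonged to another sample.

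Members, gene lists and alternatives were chosen with earlier results of these data known. Class gates used marker genes only. Their thresholds were set after marker counts and stage-wide member levels had been seen, and were not changed after values per class were seen. A progenitor had at least 2 UMIs of Pax3 and Pax7, at least 2 of 10 paraxial genes, under 3 of Myf5 and Myod1 and no Myod1. Tissue classes needed 4 to 20 UMIs from at least 2 or 3 genes of their list and a score at least 2 times the next, and red blood cells 20% globin UMIs. A muscle cell that passed the gate of another tissue, dermal cells excepted, was left out. Cells in no class were not compared.

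UMIs were summed per class and divided by the UMIs of the class. Exact Poisson intervals, exact intervals of the ratio of 2 counts and Clopper-Pearson intervals were used, all at 95%. Ratios need at least 100 UMIs in both classes together, and 1.5-fold is a size and not a test. A count of 0 was set to 3 counts over the class as a floor. The ratio step was tested on simulated data. Genes named are all members, the up to 5 highest and 3 lowest of each further list, and Cox6a2, Cox7a1 and Cox8b, while Slc2a4, Pdk3, Mpc2, Pdha1, Tigar, Atp5l, Cycs and Mterf1a were named after their values were seen. Some items that the rule covers are not reported here. Of 17 symbols listed for upkeep, 16 were found, with Peo1 among them and its newer symbol Twnk not.

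As alternatives, cells were thinned to 5000 UMIs, weighted equally, gated with thresholds 2 times as high, or clustered with Leiden on 2000 variable genes without the members (18 components, 20 neighbours, resolution 0.4). The rule that names clusters was revised after its first output, before member values per cluster were computed. Other alternatives changed the denominator, the limit on mitochondrial UMIs (none, or 5%), the fold (2) and the minimum (20 UMIs). Denominators without sarcomere UMIs, omission of shared barcodes, omission of Pgam2 and Eno3, and removal of the highest 5% of Scrublet scores were added after seeing the data. Scrublet called 0 of 9851 and 294 of 9595 kept cells, but 538 of 10121 and 1 of 10167 barcodes when run before filtering, so its automatic threshold did not work in 1 library either way, and doublets stayed in the main values.

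Software was Python 3.11.15, numpy 2.4.6, scipy 1.17.1, pandas 2.3.3, scanpy 1.11.5, leidenalg 0.10.2 and matplotlib 3.10.9. Gene positions are from GENCODE M21 and promoters from RefSeq, both on GRCm38.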

Additional observations from a re-analysis of the deposited data

Results flagged for a closer look

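Red blood cells went against other classes between stages for 10 genes, each at least 1.5-fold lower there and at least 1.5-fold higher in another class. Over all genes past the minimum, the median log2 ratio in red blood cells was -0.85, itself past 1.5-fold lower. Being lower there was therefore not particular to these genes. The differences between classes were not tested, since each class has 1 library per stage. The log2 ratios of E11.5 over E9.5 are given for the class that was highest and for red blood cells. mt-Nd2 was at 1.03 in neural crest and -1.44 in red blood cells, and mt-Co3 at 1.19 and -0.93 in the same classes. In neural tube and red blood cells, mt-Nd4 was at 0.84 and -1.45, mt-Co2 at 0.84 and -0.93, mt-Atp6 at 1.16 and -1.28, mt-Atp8 at 1.01 and -1.47, and mt-Cytb at 1.42 and -1.11. mt-Nd4l was at 1.08 in sclerotome and -1.36 in red blood cells. mt-Nd5 was at 0.68 in committed myoblasts and -1.21 in red blood cells, and Eno1 at 0.79 and -1.31 in these classes.

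In red blood cells the globin share of UMIs was 34.0% in the E9.5 library and 60.4% in the E11.5 library, and a higher share of globin lowers every other share. Per 1000000 UMIs without globin, the mitochondrial sum was 33036.1 at E9.5 and 27198.8 at E11.5. On that scale 11 of 12 mitochondrial genes past the minimum were still lower, from -1.13 upward, mt-Co1 was higher at 0.48, and Eno1 was at -0.58. The log2 ratios were -0.20 for mt-Co2 and mt-Co3, -0.37 for mt-Cytb, -0.48 for mt-Nd5 and -0.55 for mt-Atp6. These genes and Eno1 were thus within 1.5-fold on that scale. The ratios stayed past 1.5-fold at -0.62 for mt-Nd4l, -0.70 for mt-Nd2, -0.71 for mt-Nd4 and -0.73 for mt-Atp8. Ldhb was higher in red blood cells as well, from 1 UMI to 107 UMIs.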

How the results depend on the processing

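With 1 library per stage no replicate could be left out. No paired analysis was possible because no group has a second sample. The log2 ratio of the glycolysis sum between sarcomere myocytes and progenitors (0.53) was 0.47 with thinned cells, 0.56 with cells weighted equally, 0.29 with Leiden clusters, 0.58 per UMI outside sarcomere genes, 0.57 without Gapdh and 0.38 without Pgam2 and Eno3. The Leiden progenitor cluster of E11.5 held 924 cells, of which 380 were gated as committed myoblasts and 138 as progenitors. These classes therefore differ in their cells. The mitochondrial sum (0.06) was -0.03 with cells weighted equally, 0.13 with stricter gates, 0.15 with Leiden clusters, 0.05 without a mitochondrial limit, 0.11 per UMI outside sarcomere genes and 0.08 without mt-Atp6, so its sign depends on the weighting of cells. Between stages in progenitors, the glycolysis sum (-0.62) was -0.60 per UMI outside mitochondrial and globin genes, -0.56 with stricter gates, -0.44 with Leiden clusters and -0.78 without Gapdh. The mitochondrial sum (0.74) was 0.75 with cells weighted equally and without a mitochondrial limit, 0.76 per UMI outside mitochondrial and globin genes, 0.70 with stricter gates, 0.66 with Leiden clusters and under 5% mitochondrial UMIs, and 0.77 without mt-Atp6. All 3 ways of removing doublets and leaving out shared barcodes moved these sums by less than their counting intervals.

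With a fold of 2 in place of 1.5, glycolysis genes higher in sarcomere myocytes went from 7 to 4 and lower ones from 2 to 1, where the shares of all genes went from 14.7% to 10.3% and from 25.7% to 11.7%. Between stages, mitochondrial genes higher in E11.5 progenitors went from 9 to 1 and lower glycolysis genes from 9 to 4. The shares of all genes went from 19.1% to 8.96% and from 12.5% to 4.78%. In the other directions, Hk1 and Ldhb stayed higher and mt-Nd6 stayed lower at a fold of 2. Of 550 values of single genes under alternatives, 468 stayed within their counting interval, 73 moved and 9 changed sign. In sarcomere myocytes over progenitors, Pfkl was at 0.05 with thinned cells, mt-Nd6 at 0.01 without the highest Scrublet scores, and mt-Nd1, mt-Co3 and mt-Atp6 at -0.06 each with cells weighted equally. mt-Nd1 was at -0.00068 with stricter gates and -0.03 with Leiden clusters. Between stages, Gpi1 was at 0.02 with Leiden clusters and mt-Nd3 at -0.0017 under 5% mitochondrial UMIs. The cause was not tested for any of these.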

Other observations

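Genes outside the lists were ranked by how alike their levels were to Eno3, as Pearson's r of log2(UPM + 1) over 28 class and stage combinations. The highest were Lsm6 (0.830), Hs6st2 (0.828), Six4 (0.827), Ago2 (0.818) and Ptgis (0.811). Among genes already described, Eno1 was at 0.659, Aldoa at 0.607, Pfkm at 0.476 and Pgam2 at 0.356. The genes outside the lists were picked as the highest of a ranking, so the lower values of these members cannot be set against them. The combinations share 2 libraries and their depth, and the values describe likeness only. Six4, a transcription factor of somite and muscle, was at 40.3 UPM in E9.5 progenitors, 24.4 in E11.5 progenitors and 25.4 in E11.5 sarcomere myocytes. Lsm6, an RNA-processing factor, was at 322 UPM in E11.5 progenitors and 851 in sarcomere myocytes.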
